A study of Mus musculus with 24 samples.

Results

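Vertebrate cells cut most messenger RNA precursors a short way past a signal, usually AAUAAA, and add a poly(A) tail to the cut end, and the proteins that read the signal and make the cut are shared by nearly all genes. The 10 genes described here encode such cleavage and polyadenylation factors: the subunits of the cleavage and polyadenylation specificity factor, CPSF (Cpsf1, Wdr33, Cpsf4, Fip1l1, Cpsf2 and Cpsf3), of the cleavage stimulation factor, CstF (Cstf1 and Cstf3), and of mammalian cleavage factor I (Cpsf6 and Nudt21). Where a gene carries several signals, the balance of these factors is known to bear on which one is used and so on how long the 3′ end of its mRNA is. The genes were picked by symbol, all probes of each gene on all arrays, because Cpsf1 had given a low p between the diets in an earlier pass over the same data. The diet values of Cpsf1, and of the genes picked along with it, are therefore given as a description with no test. The 10 genes stand among 20660 named genes on the array. They had 14 probes, of which 13 were kept, and all 10 genes were among the 13026 named genes with a kept probe.

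RNA came from epididymal white adipose tissue, the visceral fat pad beside the epididymis, of 24 individually housed male C57BL/6JRcc mice aged 28 or 29 weeks. Semi-synthetic feed was given for 18 weeks, with nicotinamide riboside (NR) at 0 mg per kg for 12 mice (No NR) and at 30 mg per kg for the other 12 (Ctrl NR). NR is a form of vitamin B3, from which cells make NAD, and the comparison asks what the lack of added vitamin B3 does in fat. All mice had first eaten Ctrl NR for 2 weeks, both diets were kept low but adequate in tryptophan, another source of NAD, and every pad was taken after a fast and a 4 h refeeding. RNA of each mouse, in Cy5, shared an array with 1 Cy3 pool of fat pad RNA that also held other diets and females. A value below is the log2 ratio of a mouse over that pool, so 0 is the level of the pool. The ratio sets mice against each other for 1 probe and says nothing of 1 gene's level against another's.

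Between 34.5% and 50.7% of spots per array were well above background in Cy5. The arrays lay on 5 slides, each scanned as 1 batch and each holding both diets. All 10 adipocyte markers were above background on all 24 arrays, as the label of the tissue implies. Of 10 macrophage markers 9 were measured, and all 9 were higher in No NR. Their mean ran between −1.03 and 0.52 in No NR and between −1.60 and 0.63 in Ctrl NR, so the diets overlapped over most of the range. Of 6 stromal progenitor markers 5 were higher in No NR, with a median difference of 0.22. Of 8 endothelial markers 5 were lower, 4 of them at an unadjusted p under 0.05, and all 5 mesothelial markers were lower. No marker passed in limma's adjusted test. Of 8 markers of epididymis and testis, Prm1, Prm2 and Tnp1 were measured, and Lcn5, Lcn8, Defb20, Crisp1 and Ddx4 were not kept. The mean of the measured ones varied widely between mice. It ran between −2.57 and 1.14 in No NR (median −1.35) and between −2.15 and 3.05 in Ctrl NR (median −1.59). What gave the high values was not tested. In a piece of whole tissue, fewer cells of a type and less RNA per cell cannot be told apart.

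In limma's fit over all 24786 kept probes no probe passed an adjusted p of 0.05, that is 0.0% (0 of 24786), and no probe of the 10 genes did. With array weights 390 probes passed, with a mean-variance trend and robust variances 3, and without single Ctrl NR mice up to 273. At an unadjusted p under 0.05, 3480 probes were called (14.0%), 1836 lower (7.41%) and 1644 higher (6.63%) in No NR. That split depended on the scaling of the arrays: it was 904 lower and 3150 higher with the authors' processed signals, 1461 lower and 2008 higher without background correction, and 212 lower and 92 higher when arrays were only centred on their median. Among the 10 genes, 1 was below that unadjusted threshold on the lower side, Cpsf1, and 1 on the higher side, Cpsf3. Because the genes were chosen through this contrast, nothing is read from that count. By sign alone, 5 genes were lower and 5 higher in No NR, with a median difference of 0.01. Over all kept probes 52.9% were lower, with a median of −0.01.

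**Figure D1:**
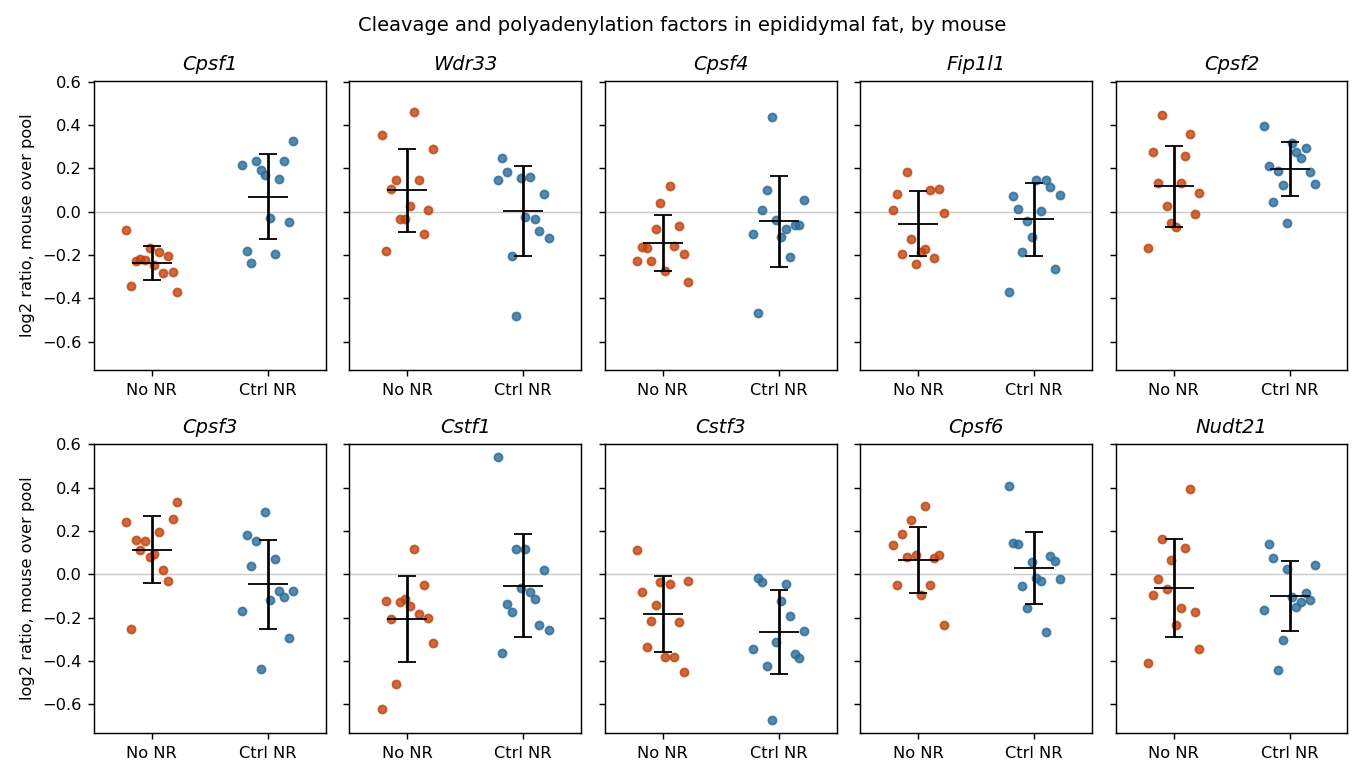
Log2 ratio of each mouse over the pool (vertical axis) for the brightest kept probe of each gene, in No NR (left, orange) and Ctrl NR (right, blue). Points are mice, 12 per diet, the long line is the mean and the bar is 1 SD. The 12 No NR mice of Cpsf1 lie between −0.37 and −0.09 while the Ctrl NR mice run between −0.24 and 0.33, and the diets overlap in Cpsf1 as in the other 9 genes.

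Cpsf1 encodes the large scaffold on which the recognition part of CPSF is built. Its log2 ratios had a lowest value of −0.37, a median of −0.22 and a highest value of −0.09 in No NR mice, against −0.24, 0.16 and 0.33 in Ctrl NR mice. All 12 No NR mice were below the pool and below the median of Ctrl NR. The diets still overlapped, since 7 No NR mice lay within the range of Ctrl NR. The other 5 No NR mice were below every Ctrl NR mouse, and 9 Ctrl NR mice were above every No NR mouse.

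Cpsf1 averaged −0.24 ± 0.08 in No NR and 0.07 ± 0.20 in Ctrl NR (SD, n = 12 each), a difference of −0.31 (SE 0.0647), which is 0.809 times the Ctrl NR level. Each channel was also rebuilt from the normalized ratio and the normalized mean of both channels, so neither is free of the other. The difference was −0.31 (SE 0.0622) in Cy5, which held the RNA of the mice. In Cy3, which held the same pool on every array, it was −0.00023 (SE 0.0245). These values are not a measurement separate from the ratio. Within slides 1 to 5 the difference in log2 ratio was −0.10, −0.26, −0.39, −0.27 and −0.43, below 0 on each, with 1 No NR mouse on slide 1. The single probe was above background on all 24 arrays, with a Cy5 signal between 3.55 and 15.1 times its background (median 7.48).

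The spread of Cpsf1 also differed between the diets. The SD in Ctrl NR was 2.55 times that in No NR, and 97.7% of kept probes had a lower ratio, where the median over all kept probes was 1.22. Cpsf1 was picked for a low p between the diets, which itself depends on the spread within diets. This rank is therefore a description with no test. Of the Ctrl NR mice 5 were below the pool, where all 12 No NR mice were. Among the other 9 genes the same SD ratio lay between 0.665 for Cpsf2 and 1.64 for Cpsf4.

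Wdr33 and Cpsf4 are the subunits known, from human proteins, to hold the AAUAAA signal itself. Wdr33 had a lowest value of −0.18, a median of 0.06 and a highest value of 0.46 in No NR, against −0.48, 0.03 and 0.25 in Ctrl NR. Its medians were close and the ranges overlapped, and the difference was 0.10 (SE 0.0810) on the brighter probe and 0.02 (SE 0.0657) on the other. Cpsf4 had −0.32, −0.17 and 0.12 in No NR, against −0.47, −0.06 and 0.44 in Ctrl NR. Of the 12 No NR mice 10 were below the Ctrl NR median of Cpsf4, inside a Ctrl NR range that was wider on both sides. The difference of Cpsf4 was −0.10 (SE 0.0725), with a sign that varied by slide, between −0.31 on slide 3 and 0.10 on slide 4. The second probe of Cpsf4 was the one not kept, being above background on 2 No NR and 1 Ctrl NR arrays.

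Fip1l1 encodes the subunit that binds U-rich RNA and brings in the poly(A) polymerase. It had a lowest value of −0.24, a median of −0.07 and a highest value of 0.18 in No NR, against −0.37, 0.01 and 0.15 in Ctrl NR. The difference was −0.02 (SE 0.0678), the smallest in size among the 10 genes, and −0.09 (SE 0.0654) on the second probe.

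Cpsf3 is the endonuclease that makes the cut, and Cpsf2 is its relative in the same complex, known as an inactive partner. Cpsf3 had a lowest value of −0.25, a median of 0.13 and a highest value of 0.34 in No NR, against −0.44, −0.08 and 0.29 in Ctrl NR. Of the No NR mice, 11 stood above the Ctrl NR median, within ranges that overlapped. Its difference was 0.16 (SE 0.0751), opposite in sign to that of Cpsf1, and it was −0.09 within slide 2 and between 0.17 and 0.37 within each other slide. Cpsf2 had −0.17, 0.11 and 0.45 in No NR, against −0.05, 0.20 and 0.40 in Ctrl NR. The No NR mice spanned more than the Ctrl NR mice on both sides. The difference of Cpsf2 was −0.08 (SE 0.0675).

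Cstf1 and Cstf3 belong to the factor that binds the GU-rich stretch past the cut, Cstf3 as the scaffold that holds the other subunits. Cstf1 had a lowest value of −0.62, a median of −0.16 and a highest value of 0.12 in No NR, against −0.36, −0.10 and 0.54 in Ctrl NR. The difference of −0.15 (SE 0.0873) was −0.71 within slide 1, where the lowest No NR mouse was set against 2 Ctrl NR mice, the highest and the lowest of their diet, and it lay between −0.16 and 0.05 within the other slides. Cstf3 had −0.45, −0.18 and 0.11 in No NR, against −0.67, −0.29 and −0.01 in Ctrl NR. All 12 Ctrl NR mice and 11 No NR mice were below the pool. The difference of Cstf3 was 0.08 (SE 0.0763) on the brighter probe and 0.13 (SE 0.0958) on the other.

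Nudt21 and Cpsf6 form cleavage factor I, which binds UGUA upstream of the signal and is known in human cells as a strong influence on which poly(A) site is used. Nudt21 had a lowest value of −0.41, a median of −0.08 and a highest value of 0.39 in No NR, against −0.44, −0.11 and 0.14 in Ctrl NR. Cpsf6 had −0.23, 0.08 and 0.31 in No NR, against −0.26, 0.02 and 0.41 in Ctrl NR. The diets overlapped in both genes, and the highest value of Nudt21 was that of a No NR mouse. Each difference was 0.04, with an SE of 0.0800 for Nudt21 and 0.0684 for Cpsf6.

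**Figure D2:**
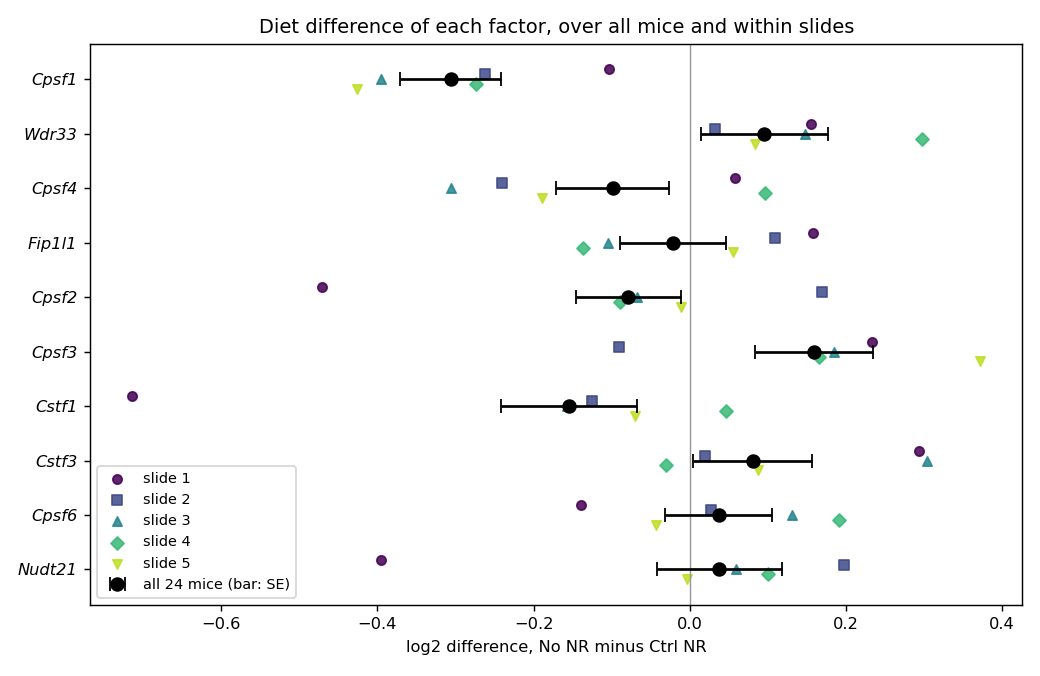
Difference in log2 ratio, No NR minus Ctrl NR (horizontal axis), of the brightest kept probe of each gene. Black points with bars are the difference over all 24 mice and its SE, and coloured marks are the differences within slides 1 to 5. Cpsf1 lies below 0 on all 5 slides and overall at −0.31, while slide 1, with 1 No NR mouse, gives the far values of Cstf1 (−0.71), Cpsf2 (−0.47) and Nudt21 (−0.40).

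For Fip1l1, Wdr33 and Cstf3 a second kept probe allowed a check of each gene against itself, which does not use the diet contrast. After the mean of each diet was taken off, the brighter and the other probe had a Pearson r over 24 mice of −0.12 for Fip1l1, −0.13 for Wdr33 and −0.0054 for Cstf3. None of these pairs of probes followed each other from mouse to mouse. Over the 3145 genes with at least 2 kept probes, the same r had a median of 0.324 and quartiles of 0.0596 and 0.582, and 20.4% of genes were below 0. All 3 genes thus lay below the lower quartile. Both Fip1l1 probes were annotated to the same transcript, and those of Wdr33 and of Cstf3 to different ones. Beyond that annotation, which transcripts each probe detects was not analysed here. As a multiple of background, the median Cy5 signal of the brighter and the other probe was 17.1 and 3.82 for Fip1l1. It was 14.4 and 6.65 for Wdr33, and 6.98 and 6.12 for Cstf3. The values of these 3 genes hold for a probe rather than for all transcripts of the gene, and Cpsf1, Cpsf2, Cpsf3, Cstf1, Cpsf6 and Nudt21, with 1 probe each, have no such check.

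**Figure D3:**
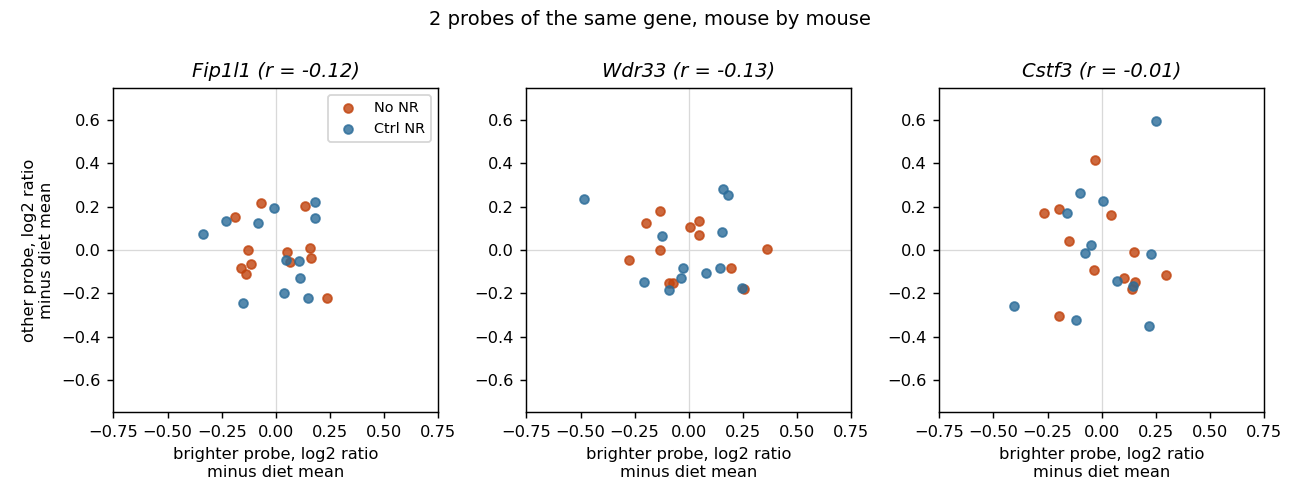
Log2 ratio of the brighter probe (horizontal axis) and of the other kept probe of the same gene (vertical axis), each minus the mean of its diet, for Fip1l1, Wdr33 and Cstf3. Points are mice, 12 No NR (orange) and 12 Ctrl NR (blue). The points form round clouds, with r between −0.13 and −0.0054.

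Whether the 10 genes moved together from mouse to mouse was asked in the same way, on log2 ratios with the diet means taken off, so that the diet contrast enters none of these values. Of the 45 pairs of genes 22 had a positive r, with a median of −0.0036 and a range between −0.59 and 0.60. The strongest by r were Cpsf3 with Wdr33 (r = 0.604, rho = 0.522), Wdr33 with Cstf3 (r = 0.591, rho = 0.510) and Fip1l1 against Cstf1 (r = −0.586, rho = −0.430). Each of the 3 had an adjusted p of 0.0498 for r (2-sided permutation test over 24 mice with 100000 resamples, Benjamini-Hochberg over 45 pairs). No pair passed by rho, where adjusted p values of the 3 were 0.218, 0.218 and 0.289 in the same permutation test. By rho the strongest pair was another, Cpsf3 against Cstf1 (rho = −0.580, r = −0.419, adjusted permutation p = 0.190 for rho). With slide means taken off as well, 2 pairs passed by r, and Wdr33 with Cstf3 had an r of 0.471.

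All 3 pairs had the same sign in each diet alone. Cpsf3 with Wdr33 had an r of 0.675 in No NR and 0.561 in Ctrl NR, Wdr33 with Cstf3 had 0.374 in No NR and 0.774 in Ctrl NR, and Fip1l1 against Cstf1 had −0.553 in No NR and −0.611 in Ctrl NR. Without the 2 mice farthest from the median of the first gene of each pair, r was 0.349 for Cpsf3 with Wdr33, 0.431 for Wdr33 with Cstf3 and −0.426 for Fip1l1 against Cstf1. No pair then passed the permutation test. Those mice were chosen as extremes, whose loss can lower r by itself, though r rose in some other pairs. Whether the calls rest on those mice is therefore not settled. Removal of other mice was not run. The Ctrl NR mouse numbered 64 was the lowest of the 12 in Cpsf3, at −0.44, and on the brighter probes of Wdr33, at −0.48, and Cstf3, at −0.67. On the other kept probe that mouse was at 0.18 in Wdr33 and −0.52 in Cstf3. Each of the 3 pairs rests on the brighter probe of Wdr33, Cstf3 or Fip1l1, which the other kept probe did not follow. Pairs with those other probes were not run.

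Set against all other kept probes, an r of at least 0.5 with Wdr33 was reached by 8.38% of probes and with Cpsf3 by 8.2%, so an r of that size is not particular to the 10 genes. Wdr33 had 2 of its 9 partners there, Cpsf3 had 1 of 9 and Cstf3 had 1 of 9 (3.58% of kept probes). There were 0 of 9 for Cpsf2 (2.71%), Cpsf4 (4.28%), Cpsf6 (2.0%), Fip1l1 (1.8%), Cstf1 (5.08%) and Nudt21 (5.96%). Cpsf1 had 0 of 9, where 1.35% of kept probes (334 of 24785) reached it. Its highest r among the factors was 0.422 with Cpsf4 (adjusted permutation p = 0.260) and its lowest −0.401 with Cstf3 (adjusted permutation p = 0.260).

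**Figure D4:**
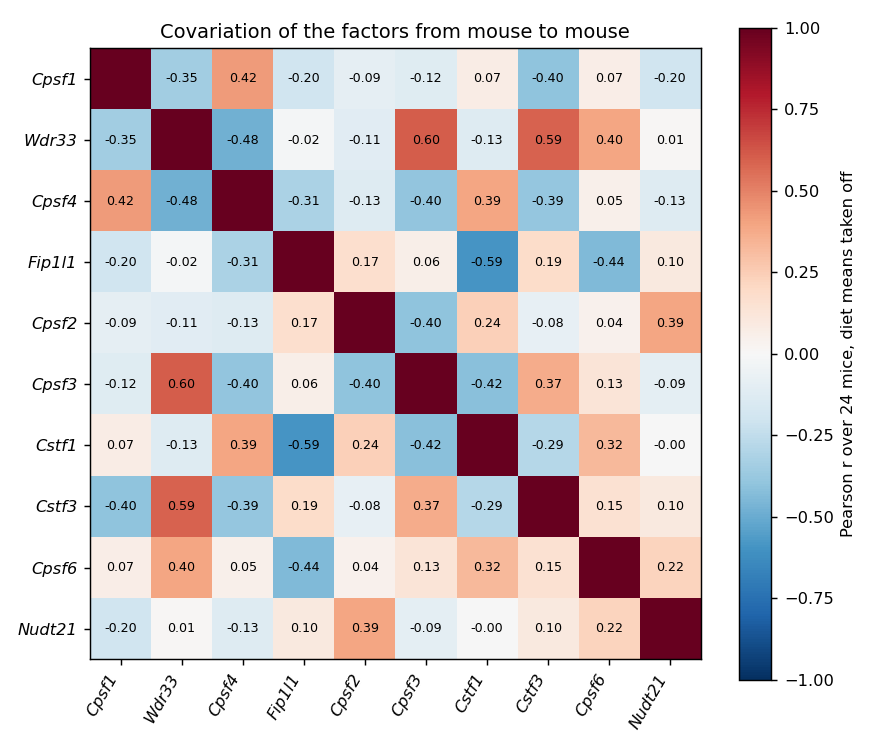
Pearson r over 24 mice between the log2 ratios of each pair of genes after the mean of each diet was taken off (red positive, blue negative, value printed in each cell). Most cells are pale, with a median of −0.0036, and Cpsf3 with Wdr33 (0.60), Wdr33 with Cstf3 (0.59) and Fip1l1 with Cstf1 (−0.59) are the darkest off the diagonal.

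The promoters of the genes in these pairs, other than Wdr33, which was not used, are shown for comparison of what lies before their starts. Each run gives the 250 bases before an annotated start from RefSeq (GRCm38.p6), 5′ to 3′ on the strand of the gene, which is the plus strand for all 4. The array files name the earlier build mm9, so these positions come from the RefSeq table alone. They are chr12:21286047-21286296 for Cpsf3, chr2:104590234-104590483 for Cstf3, chr5:74535241-74535490 for Fip1l1 and chr2:172370753-172371002 for Cstf1. Capitals mark every match, on either strand, to 6 motifs: the NRF1 motif (GCGC, any base, TGCGC), the YY1 core GCCATNTT, the ETS motif CCGGAAG, the GC box GGGCGG, the CCAAT box (those letters) and the TATA box TATAAA.
Cpsf3: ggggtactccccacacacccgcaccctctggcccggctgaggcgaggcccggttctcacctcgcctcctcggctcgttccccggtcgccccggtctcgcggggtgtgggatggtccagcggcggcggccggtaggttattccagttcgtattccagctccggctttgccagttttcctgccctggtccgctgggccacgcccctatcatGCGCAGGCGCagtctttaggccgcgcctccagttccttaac
Cstf3: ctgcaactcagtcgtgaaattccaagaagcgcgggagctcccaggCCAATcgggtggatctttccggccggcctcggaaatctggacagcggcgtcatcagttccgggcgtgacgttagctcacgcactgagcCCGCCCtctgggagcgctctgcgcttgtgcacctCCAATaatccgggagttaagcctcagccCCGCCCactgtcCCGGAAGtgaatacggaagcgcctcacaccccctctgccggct
Fip1l1: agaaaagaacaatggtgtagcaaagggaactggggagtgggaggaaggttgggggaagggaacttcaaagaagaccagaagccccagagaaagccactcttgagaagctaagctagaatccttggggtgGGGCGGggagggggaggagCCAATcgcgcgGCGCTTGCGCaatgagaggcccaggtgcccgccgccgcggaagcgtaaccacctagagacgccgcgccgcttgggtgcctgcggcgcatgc
Cstf1: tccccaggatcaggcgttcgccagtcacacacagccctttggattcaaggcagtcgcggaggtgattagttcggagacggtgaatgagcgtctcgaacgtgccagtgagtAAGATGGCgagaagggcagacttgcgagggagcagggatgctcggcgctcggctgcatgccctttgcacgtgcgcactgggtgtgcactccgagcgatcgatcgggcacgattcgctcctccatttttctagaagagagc

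Cpsf3 and Cstf3, the partners of Wdr33, shared none of the 6 motifs in these windows. They were not a called pair themselves (r = 0.370, adjusted permutation p = 0.260), and neither was compared with Wdr33 here. Cpsf3 held 1 NRF1 match, while Cstf3 held 1 ETS match, 2 GC boxes and 2 CCAAT boxes. Fip1l1 held 1 NRF1 match, 1 GC box and 1 CCAAT box, and Cstf1, which ran opposite to it, held 1 YY1 core match alone. Over all 8 of the genes matched in the table (Cpsf1 had no entry and Wdr33 was not used), the NRF1 motif was found before Cpsf3, Cpsf4 and Fip1l1, against 3.74% of 32851 promoter windows of the same length. The GC box was found before Cstf3, Fip1l1 and Cpsf6 (32.7% of windows) and the CCAAT box before Cstf3, Fip1l1 and Nudt21 (33.8%). The ETS motif was before Cstf3 (6.91%), the YY1 core before Cstf1 (3.91%), and no TATA box was found (12.4%). The windows held 11 CpG in Nudt21, more than 64.4% of all windows, and 17 to 24 in the other 7 genes. No matches overlapped in the runs shown. A match says only that these letters are there.

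Markers of cell types did not pass with any of the 10 genes: 0 of 60 relations between a gene and the mean of a marker list passed after adjustment in the permutation test. Cpsf1 had an r of 0.153 with the macrophage list and −0.095 with the adipocyte list. Wdr33 had the largest, 0.526 with adipocytes (adjusted permutation p = 0.307), −0.453 with macrophages (adjusted permutation p = 0.413) and −0.547 with stromal progenitors (adjusted permutation p = 0.307). Nudt21 ran the other way, with −0.438 for adipocytes and 0.450 for macrophages (adjusted permutation p = 0.413 for each). In No NR mice alone these were −0.757 and 0.797, and in Ctrl NR mice alone 0.047 and 0.113. That difference between the diets was not tested. The adipocyte list averaged 0.04 ± 0.50 in No NR and 0.12 ± 0.45 in Ctrl NR, and the macrophage list −0.19 ± 0.59 in No NR and −0.48 ± 0.75 in Ctrl NR (SD, n = 12 each). The part of these cells in the diet values of the 10 genes was not tested.

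Genes of the same step and of neighbouring steps were read from 6 lists, of which 52 of 56 genes were measured. None passed in limma's fit (0 of 52), and 9 had an unadjusted p under 0.05 (17.3%, against 14.0% of all kept probes), 5 lower and 4 higher in No NR. Their median difference was −0.02. Among the other cleavage and polyadenylation factors, 10 of 11 were measured, 5 higher and 5 lower, with a median of −0.01. Cstf2t, a relative of the RNA-binding subunit of CstF, was 0.16 ± 0.21 in No NR and −0.04 ± 0.14 in Ctrl NR (difference 0.20, SE 0.0733, limma adjusted p = 0.222). Rbbp6, which is known to be needed for the cut in human extracts, was −0.19 ± 0.14 in No NR and −0.04 ± 0.16 in Ctrl NR (difference −0.15, SE 0.0645, limma adjusted p = 0.291). Sympk, the scaffold that joins the endonuclease to the recognition part, differed by −0.07 (SE 0.0812), and Papola, the main poly(A) polymerase, by −0.10 (SE 0.125).

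Integrator is a separate complex that cuts small nuclear RNAs and paused transcripts, and its endonuclease Ints11 and partner Ints9 are relatives of Cpsf3 and Cpsf2. Of its 14 genes 12 were measured, 4 higher and 8 lower, with a median of −0.02. Ints3 had the lowest p of the 52 genes, with a lowest value of −0.54, a median of −0.21 and a highest value of 0.01 in No NR, against −0.15, −0.01 and 0.22 in Ctrl NR. The diets overlapped at the ends, and the difference of Ints3 was −0.26 (SE 0.0651, limma adjusted p = 0.0874). Ints1, the largest subunit, differed by −0.22 (SE 0.0840, limma adjusted p = 0.237). Ints11 differed by −0.02 (SE 0.0708) and Ints9 by −0.04 (SE 0.0783).

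Of the 10 genes of transcription termination and the U1 particle, 7 were lower and 3 higher, and the median was −0.07. Rprd1b, which binds the tail of RNA polymerase II, differed by −0.18 (SE 0.0790, limma adjusted p = 0.294), and Cdk12, a kinase of that tail, by −0.17 (SE 0.0945, limma adjusted p = 0.417). Histone mRNAs are cut by Cpsf3 as well but get no poly(A) tail, and of 5 genes of that step 4 were measured. Among them Slbp, which binds the histone stem-loop, differed by 0.21 (SE 0.0927, limma adjusted p = 0.305) and Lsm10, of the U7 particle, by −0.11 (SE 0.0609, limma adjusted p = 0.401). The 14 deadenylation genes, which shorten the tail again, had 6 genes higher and 8 lower, and their median was −0.03. Both of their lowest p values belonged to subunits of the CCR4-NOT complex, Cnot7 at 0.15 (SE 0.0643, limma adjusted p = 0.280) and Cnot9 at 0.17 (SE 0.0842, limma adjusted p = 0.354). Ddb1 and Sf3b3, relatives of Cpsf1 in fold that work in DNA repair and in splicing, differed by −0.06 (SE 0.0644) and 0.01 (SE 0.0510).

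**Figure D5:**
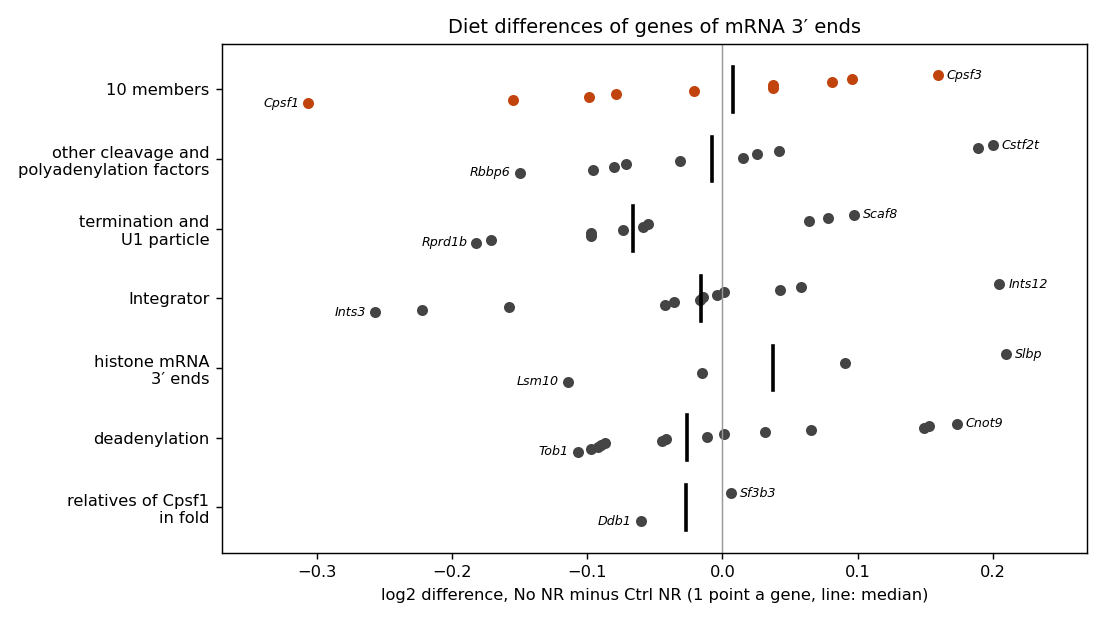
Difference in log2 ratio, No NR minus Ctrl NR (horizontal axis), of the 10 factors (orange) and of the measured genes of 6 lists of related steps (grey), 1 point a gene, with a line at the median of each row. The end genes of each row are named. Cpsf1 at −0.31 is the farthest point to the left, next to Ints3 at −0.26, and all medians lie between −0.07 and 0.04.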

How the data were processed

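The scanner files deposited by the authors hold linear spot intensity. Per the submitters' processing notes, Agilent Feature Extraction 10.7.3.1 read the images. Median spot signals were used, since mean signals, planned as input, are not in these tables. The authors' deposited value table holds log2 values of 26384 features. Each column had an r of 0.990 or more with the Cy5 signal of its own array, an r with the log ratio of no more than 0.180 and a median of 8.04, and how it was normalized is not given in the sources used here. Genes were named by unversioned accession through RefSeq (GRCm38.p6), where 27235 of 55681 probes matched 1 symbol.

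Background was corrected with normexp (offset 50) and ratios were normalized by loess within arrays, in limma 3.58.1 under R 4.3.3. Control and outlier spots were left out and spots of a probe averaged. A probe was kept when well above background in Cy5 on at least 6 of the 12 arrays of a diet, which left 24786. Diets were compared with limma, diet as the only term, and Benjamini-Hochberg adjustment over all kept probes. A gene was represented by its brightest kept probe. Covariation used permutation tests with 100000 resamples within diets. The method was tested on simulated data made from shuffled arrays, where most runs gave few false calls but 1 gave many, so a count of calls can arise from what arrays share. No pair of arrays was identical. The animal numbers differ between the diets, so nothing paired the mice. The labels give 1 array per mouse, and precision is limited by how many arrays there are.

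The 10 genes, the lists and the tests were chosen with earlier results of these data known. Beside the 10 genes, the text names of each list the 2 genes with the lowest p, the genes most and least like Cpsf1 and most like Nudt21, and the neighbours of Cpsf1. Some results that this rule would name are not reported here. Sympk, Papola, Ints9 and Ints11 were named in addition, for their roles, after their values were seen. Alternatives changed the background correction, the scaling, the filter, the variance model, slide as a block, the probe of each gene and the mice included. The Cy5 channel alone, rebuilt from the normalized values, was added after the data were seen.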

Additional observations from a re-analysis of the deposited data

How the results depend on the processing

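The difference of Cpsf1 was below 0 in 38 of 38 other settings, between −0.37 and −0.31 over the settings that kept all mice and between −0.33 and −0.28 when 1 mouse was left out. It was −0.10 within slide 1. Several of the 38 settings, such as the other filters and the trend in variance, could not change the difference of this probe. Most of the others left out only 1 mouse, and Cpsf1 was chosen through this contrast. The count of settings with the same sign is therefore no measure of how firm the sign is. Fip1l1 and Nudt21 kept their sign in 36 of 38 settings and the other 7 genes in 38 of 38, but sizes moved. With all mice kept, Cpsf3 ran between 0.04 and 0.19, Cstf1 between −0.26 and −0.07, Cstf3 between 0.03 and 0.21, Wdr33 between 0.01 and 0.19, Cpsf4 between −0.16 and −0.05, Cpsf2 between −0.11 and −0.01, Cpsf6 between 0.01 and 0.11, Fip1l1 between −0.11 and 0.01 and Nudt21 between −0.02 and 0.13. The median over the 10 genes, 0.01 as reported, was −0.06 with median centring and 0.06 with the authors' processed signals, where the median of all kept probes was −0.05 and 0.04. No probe passed as reported, 3 passed with a mean-variance trend and robust variances, and 390 with array weights. Leaving out 1 mouse gave 0 to 273 probes: 3 when the No NR mouse 78 was left out, 2 for No NR 118, and 273, 249, 105, 42 and 6 for the Ctrl NR mice 117, 68, 104, 77 and 75. Cpsf1 was the only one of the 13 probes of these genes called in any of them. It was called with array weights and without Ctrl NR 117, 104, 68 or 77. Because Cpsf1 was chosen through this contrast, nothing is read from those calls. In Cpsf1 the mice 104, 77 and 117 were the lowest of Ctrl NR, at −0.24, −0.20 and −0.18. Losing any of them widens its difference, while Ctrl NR 68 was at 0.17. The cause of the calls was not tested. Of the 45 pairs of genes 3 passed as reported, 2 with slide means taken off, 0 in No NR mice alone, 0 in Ctrl NR mice alone, 0 without the 2 mice farthest from the median, 1 in the authors' value table and 45 with median centring. With median centring 50 of the 60 relations to cell type lists passed, against 0 as reported. That setting leaves each array's dependence on intensity in the ratios: the median r of Cpsf1 with all kept probes was 0.834 there, 86.9% of probes reached 0.5, and 304 in place of 3480 probes had an unadjusted p under 0.05. No paired analysis was possible because the diets share no animal number. The median SE over kept probes, 0.0808 on the log2 scale, was as large as the differences of Fip1l1, Cpsf6, Nudt21, Cpsf2 and Cstf3 or larger, and no value here shows which poly(A) sites were used.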

Other observations

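Among representative probes of named genes, the 5 that followed Cpsf1 most closely over 24 mice, with diet means taken off, were Adprhl2 (r = 0.773), Carmil1 (r = 0.743), D330050I16Rik (r = 0.712), Trappc9 (r = 0.708) and Afg3l1 (r = 0.699). The first 4 had an r between 0.496 and 0.683 in No NR mice alone and between 0.760 and 0.884 in Ctrl NR mice alone. Afg3l1 had −0.296 in No NR and 0.877 in Ctrl NR, and the difference between the diets was not tested. The 3 that ran most opposite to Cpsf1 were Zfand6 (r = −0.710), Amigo2 (r = −0.693) and Mrpl53 (r = −0.668). For Nudt21 the closest was Baz2b (r = 0.848). All of these were picked as extremes out of the named genes and share the 24 arrays, so they are descriptions with no test.

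In the order of the RefSeq table, Cpsf1 lies between Adck5 and Slc39a4. Differences between the diets (No NR minus Ctrl NR) of the genes around it were −0.14 (SE 0.0845) for Slc52a2, −0.02 (SE 0.121) for Adck5, −0.12 (SE 0.171) for Slc39a4, 0.03 (SE 0.0770) for Vps28 and −0.00 (SE 0.0889) for Tonsl, and Gm35739 had no probe. Of these 5 genes, Slc52a2, a riboflavin transporter, had an r of 0.516 with Cpsf1 with diet means taken off, where 1.35% of kept probes reached 0.5, and the other 4 had an r between 0.0764 and 0.312.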
